A study of Homo sapiens with 8 samples.

Results

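Bound RNA regions lying over genes of opposite strands were examined in RIP-seq data of eIF4G2, an initiation factor of the eIF4G family that serves translation by other routes than the usual cap complex. In RIP-seq, RNA that comes down with a protein under an antibody is sequenced, and stretches of the genome rich in such reads are listed as regions. The cells were IHCF, an immortalized human cardiac fibroblast line, and the study asked about mRNAs that eIF4G2 serves in fibroblast activation. All cells were grown with serum and insulin and infected with a lentiviral vector, either a scramble control or full-length eIF4G2, and the labels give an eIF4G2 antibody for both. Of the 8 libraries, in 4 groups of 2, the bound RNA gave 2 lists of regions, 1 for the control vector (the control list) and 1 for the eIF4G2 vector (the overexpression list). The authors' table names, which also carry the name of another RNA-binding protein, MOV10, are the sole link between list and vector. That the regions are eIF4G2-bound RNA is thus an assumption, taken from the labels of the libraries. The lists give positions on GRCh38 and the Ensembl transcripts there, but neither read counts nor scores nor values for single replicates. The depth is thus unknown, differences between the lists lack any check over replicates, and fibroblast markers could not be examined as expression.

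A region belonged to the set when transcripts of both the plus and the minus strand lay over it, by at least 1 bp. This held for 176 of 1224 control regions and 313 of 1986 overexpression regions, 489 of 3210 together. A further 939 control and 1554 overexpression regions lay over genes of 1 strand, and 109 and 119 over no gene. The regions carry no strand, so the RNA under them may come from either gene or from both. A difference in binding of a transcript and a difference in its abundance also cannot be told apart.

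Genes of opposite strands can share bases in 3 arrangements. Tail to tail genes run towards each other and overlap at their 3′ ends, head to head genes run away from each other and overlap at their 5′ ends or share a promoter, and a nested gene lies wholly within the span of the other. Antisense transcripts of such loci can pair with the mRNA of the partner gene and are known to act on its stability, splicing or translation. Long 3′ ends of mRNAs are a frequent source of tail to tail overlap.

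The head to head pairs are shown first by their promoters, because several regions spanned the stretch from which both genes start. Both genes were found in the RefSeq (GRCh38.p14) promoter table used here for 16 of the 30 head to head pairs. The table can hold several start sites for a gene, and the first listed was taken. By these starts, the genes of 10 pairs diverge from within 1000 bp of each other and those of 6 pairs overlap at their starts. The split depends on the start taken: KLHDC3 with MEA1 and LINC00863 with NUTM2A-AS1, both among the 10, share 2638 and 148 bp over their whole RefSeq gene records. The 250 bases upstream of the start taken are printed for 5 genes, 5′ to 3′ on the strand of the named gene. For HNRNPDL the RefSeq gene record reaches 82430462, so most of its printed window lies inside the gene. Its distance to ENOPH1 is 365 bp by the starts taken and 127 bp by the gene records. Capitals mark the GC box (GGGCGG or, on the other strand, CCGCCC) and the CCAAT box (CCAAT or ATTGG); no CCAAT box was found, so none overlaps a GC box.
TPT1 (chr13:45341184-45341433, minus strand): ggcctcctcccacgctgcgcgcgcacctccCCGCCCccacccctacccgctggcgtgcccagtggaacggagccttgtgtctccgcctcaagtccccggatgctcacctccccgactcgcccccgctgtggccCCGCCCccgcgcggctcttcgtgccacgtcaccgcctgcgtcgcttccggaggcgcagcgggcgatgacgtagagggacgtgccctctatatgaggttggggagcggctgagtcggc
ATP5ME (chr4:674277-674526, minus strand): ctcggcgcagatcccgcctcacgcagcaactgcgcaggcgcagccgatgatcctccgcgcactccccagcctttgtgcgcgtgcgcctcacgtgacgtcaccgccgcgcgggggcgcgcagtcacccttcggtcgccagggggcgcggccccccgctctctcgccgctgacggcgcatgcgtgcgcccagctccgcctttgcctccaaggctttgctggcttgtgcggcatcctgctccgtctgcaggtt
GAR1 (chr4:109815260-109815509, plus strand): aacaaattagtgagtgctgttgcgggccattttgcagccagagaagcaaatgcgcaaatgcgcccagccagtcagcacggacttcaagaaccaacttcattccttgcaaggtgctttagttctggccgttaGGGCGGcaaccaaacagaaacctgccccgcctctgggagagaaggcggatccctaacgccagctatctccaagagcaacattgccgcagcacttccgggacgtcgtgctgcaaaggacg
HNRNPDL (chr4:82430226-82430475, minus strand): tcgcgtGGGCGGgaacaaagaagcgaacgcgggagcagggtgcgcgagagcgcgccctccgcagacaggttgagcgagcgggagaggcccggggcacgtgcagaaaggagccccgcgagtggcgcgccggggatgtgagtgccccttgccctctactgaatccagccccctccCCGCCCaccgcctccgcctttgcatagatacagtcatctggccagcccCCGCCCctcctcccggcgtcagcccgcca
KLHDC3 (chr6:43013999-43014248, plus strand): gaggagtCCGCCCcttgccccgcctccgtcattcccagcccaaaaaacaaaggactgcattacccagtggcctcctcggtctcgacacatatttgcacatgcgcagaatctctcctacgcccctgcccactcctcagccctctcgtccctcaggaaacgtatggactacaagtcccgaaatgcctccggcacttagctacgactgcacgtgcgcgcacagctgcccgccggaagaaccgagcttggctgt
The window of TPT1 held 2 GC boxes, that of HNRNPDL 3, those of GAR1 and KLHDC3 1 each and that of ATP5ME 0; none of the 5 held a CCAAT box. Over all 35116 RefSeq promoter windows of this length, 42.6% held a GC box and 32% a CCAAT box. The 5 windows are few and picked, so whether they differ from these shares was not tested. The number of CG dinucleotides was 30 in the window of TPT1, 34 in ATP5ME, 14 in GAR1, 27 in HNRNPDL and 18 in KLHDC3, against a median of 11 over all windows. Over both promoters of the 16 pairs the median was 26, from 2 at GACAT2 to 49 at MTCL1. Where the genes of a pair diverge from close by, their windows hold some of the same bases, so these counts are not separate values.

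The second set of sequences belongs to a nested locus, where a control region of 2580 bp over LARP7 also covered the hairpins of 5 microRNAs of the other strand. LARP7 is an RNA-binding protein of the 7SK complex, and the miR-302 and miR-367 microRNAs, coded within its span, are known from pluripotent cells. The hairpins lie within 684 bp of chromosome 4 (chr4:112647874-112648557, minus strand) and the region at 112646241 to 112648820. The mature 3p strands from RefSeq are printed with the seed, bases 2 to 8, in capitals.
hsa-miR-302a-3p: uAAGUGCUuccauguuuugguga
hsa-miR-302b-3p: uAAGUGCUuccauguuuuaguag
hsa-miR-302c-3p: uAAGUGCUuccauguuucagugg
hsa-miR-302d-3p: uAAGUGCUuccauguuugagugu
hsa-miR-367-3p: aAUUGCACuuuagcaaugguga
The 4 miR-302 strands share the seed AAGUGCU, and miR-367-3p has AUUGCAC. A second control region of 1290 bp and an overexpression region of 955 bp also lay over LARP7 and the host transcript MIR302CHG, but over no hairpin. Away from MIR302CHG, LARP7 had 6 further control and 3 further overexpression regions, while MIR302CHG had none of its own. The libraries were poly(A)-enriched, so the lists say nothing of mature microRNAs.

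Regions over genes of both strands were found wherever the lists had many regions. In the control list they made up 14.4% of all regions (95% Wilson interval 12.5 to 16.5) and in the overexpression list 15.8% (14.2 to 17.4). On chromosome 4 the shares were 14.2% (12.3 to 16.3) of 1185 control regions and 17.1% (14 to 20.7) of 491 overexpression regions, with overlapping intervals. Chromosome 18 was absent from the control list, and 193 of its 1339 overexpression regions belonged to the set (14.4%, 12.6 to 16.4). On chromosome 10 they were 6 of 29 control and 24 of 121 overexpression regions. The control list had regions on chromosomes 4, 10, 13, 21 and M only, and the overexpression list on 4, 6, 10, 13, 16, 18, X and Y. All counts of genes and pairs are thus of these chromosomes and not of the whole genome. The intervals cover counting error only and treat neighbouring regions as independent, which they are not.

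**Figure D1:**
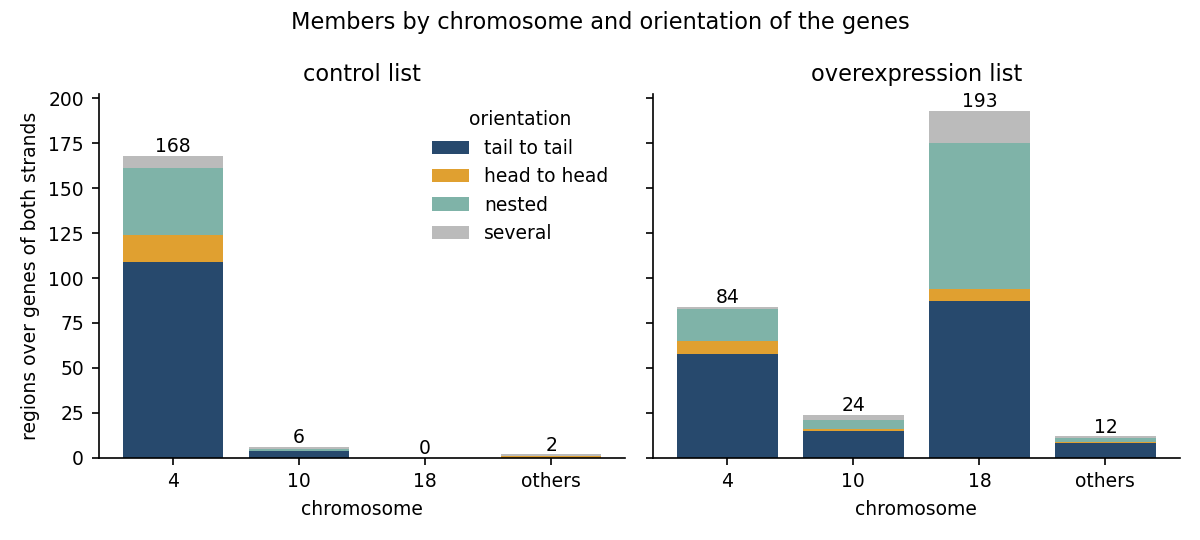
Number of regions over genes of both strands (vertical axis) by chromosome (horizontal axis) in the control list (left) and the overexpression list (right), coloured by the arrangement of the genes; "several" marks regions whose gene pairs differ in arrangement. The control list has 168 such regions on chromosome 4 and 0 on chromosome 18, and the overexpression list has 84 and 193.

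The remaining chromosomes added a few loci, most of them in the overexpression list. On the X chromosome, its regions joined DKC1, the pseudouridine synthase dyskerin, to MPP1 (2620 bp), PQBP1 to SLC35A2, a nucleotide sugar transporter of the Golgi (2800 bp), and TSR2 to FGD1 (2 regions, 3800 bp). On chromosome 6, KLHDC3 and MEA1 shared 1 region of 1025 bp. Chromosome 13 had TPT1 with its antisense gene in both lists. In mitochondrial DNA, where genes of both strands are closely packed, 1 control region of 430 bp lay over MT-CYB, a subunit of complex III, and over MT-ND6 and MT-TE of the other strand.

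Named genes of many kinds met in these regions. Between them the regions held 363 genes, of which 287 had a name; 282 of the names matched RefSeq, directly or as an older symbol. By RefSeq type, 226 were protein-coding, 34 were named antisense or divergent transcripts (symbols ending in AS, DT and the like), 7 were pseudogenes and 7 other long noncoding RNAs. The small RNA names numbered 10: the 5 microRNAs above with their host transcript, SNORD58A, SNORD58B and SNORD58C under the region of RPL17, and SNORD73A under that of RPS3A. A further 76 genes had no name.

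Many genes entered the lists through these regions alone. Of 471 genes in the control list 185 had at least 1 region shared with a gene of the other strand, and 111 of these (23.6% of the list) had no other. In the overexpression list the numbers were 268 of 634 and 157 (24.8%). Among coding genes, 59 of 363 (control) and 87 of 464 (overexpression) were listed only so. Of the named antisense genes, 17 of 23 with a control region and 26 of 35 with an overexpression region shared it with an opposite gene, and 13 and 16 had no region elsewhere. These genes carry symbols that mark them as antisense to or divergent from another gene, so the counts are a description. The lists cannot give a shared region to the antisense strand.

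The regions made 211 pairs of a plus and a minus gene, 106 of them under control and 153 under overexpression regions. Tail to tail pairs were the most frequent, with 53 of the control and 76 of the overexpression pairs (50% and 49.7%). Nested pairs made up 34 and 58, and head to head pairs 19 in each list. Over regions instead of pairs, 113 control and 168 overexpression regions were tail to tail (64.2% and 53.7%), 38 and 106 nested, and 16 in each list head to head. Pairs of 2 coding genes were tail to tail in 56 of 72 cases, and pairs with an unnamed gene were nested in 48 of 84. The stretch shared by the genes was longest at tail to tail pairs (median 10439 bp where they overlapped) and shortest at head to head pairs (885 bp). In 21 of the 211 pairs the genes shared no base, and a region bridged the gap between them.

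In all, 106 of 176 control regions (60.2%) and 214 of 313 overexpression regions (68.4%) lay wholly on bases that both genes cover, and position varied with the arrangement. Of the tail to tail regions, 77 of 113 in the control list (68.1%, 59.1 to 76) and 115 of 168 in the overexpression list (68.5%, 61.1 to 75) lay on such bases alone. Of the head to head regions, 1 of 16 did so in each list. Their median widths were 1005 and 1015 bp, and head to head genes shared a median of 885 bp where they overlapped. How far this contrast follows from the arrangement was not tested. A transcript 3′ end lay inside 59.3% of tail to tail regions of the control list and 51.2% of the overexpression list, against 33.5% and 25.8% of regions over genes of 1 strand. The share of tail to tail regions holding 3′ ends of both genes was 11.5% and 15.5%. A transcript 5′ end lay in 16 of 16 and 15 of 16 head to head regions, against 11.3% and 9.59% of regions over 1 strand. Tail to tail genes meet at 3′ ends and head to head genes at 5′ ends, and a region with more transcripts has more ends to hold. How far both differences follow from this was not tested.

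**Figure D2:**
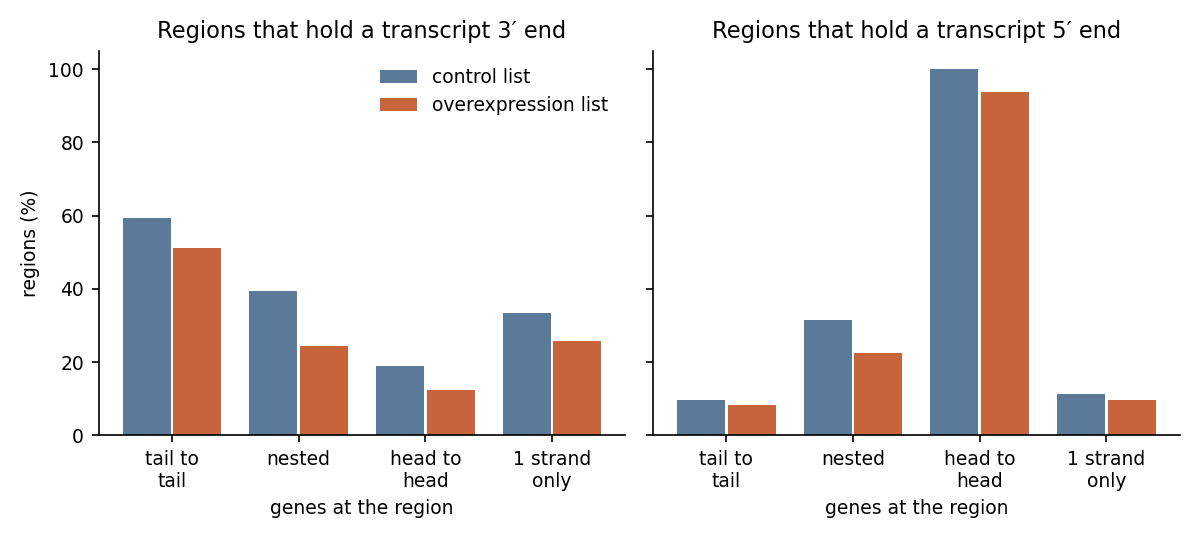
Percentage of regions (vertical axis) that hold at least 1 transcript 3′ end (left) or 5′ end (right), by the arrangement of the genes at the region (horizontal axis), in the control list (blue) and the overexpression list (orange). Regions whose pairs differ in arrangement are not drawn. Among the classes drawn, bars for 3′ ends are tallest at tail to tail genes (59.3% and 51.2%), and bars for 5′ ends at head to head genes (100% and 93.8%).

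Among tail to tail pairs, the widest control region, 6320 bp, spanned the 3′ ends of ADD1, an actin-capping adducin, and MFSD10, a membrane transporter, with 484 bp between the gene spans. This pair had no overexpression region, although ADD1 alone had 1. An overexpression region of 1000 bp over MFSD10 and NOP14-AS1 overlapped the end of this control region. A control region of 4415 bp at chr4:121814801-121819215 covered the 578 bp shared by EXOSC9, a subunit of the RNA exosome, and CCNA2, cyclin A2, and ran on into both genes. The overexpression list had 2 regions over CCNA2 alone and 1 over EXOSC9 alone, but none over the pair. JADE1, a scaffold of a histone acetyltransferase, and SCLT1, a centriole protein, had 2 control regions (4585 bp) and 2 overexpression regions (1330 bp), and the whole of the latter lay under the former.

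The highest number of control regions, 9, was found at TMEM165 with CLOCK (7475 bp in all) and at MRPS18C with ABRAXAS1 (3900 bp), named like the other pair of this paragraph after their values were seen. TMEM165 is a Golgi membrane protein needed for glycosylation and CLOCK a transcription factor of the circadian clock. The overexpression list had 3 regions there (2605 bp), of which 2075 bp coincided with control regions. CLOCK had no region outside the stretch it shares with TMEM165, and TMEM165 had 3 in the control list. MRPS18C, a mitochondrial ribosomal protein, and ABRAXAS1, a scaffold of the BRCA1-A complex, had 5 overexpression regions (3620 bp), 1 of them with the same ends as a control region. NOP14, a nucleolar protein of ribosome assembly, and NOP14-AS1 had 6 and 3 regions (6960 and 2550 bp).

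FGF2, the basic fibroblast growth factor, and NUDT6, also known as the FGF2 antisense gene, are a textbook tail to tail pair. The control list had 3 regions there, of 215, 1200 and 1935 bp, all wholly on the 9540 bp that both genes cover by Ensembl. The overexpression list had 1 region of 1335 bp at chr4:122892066-122893400, which began at the same base as the first control region, and 1 of 930 bp across the 3′ end of FGF2. FGF2 had a region apart from NUDT6 in the overexpression list only (995 bp), and NUDT6 had 2 apart from FGF2 in the control list only (725 bp). PALLD, the actin scaffold palladin, and CBR4, a mitochondrial reductase, had 5 control regions, from 400 to 2155 bp, and none in the overexpression list. CBR4 also had 3 control regions of its own and PALLD had none.

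At the 3′ end of NOCT, nocturnin, whose transcript follows the circadian clock, and ELF2, an ETS family transcription factor, the control list had a region of 1290 bp and the overexpression list 1 of 2400 bp that contained it. NOCT had no other region, whereas ELF2 had 7 control and 3 overexpression regions of its own. RPS3A, a protein of the small ribosomal subunit, and SH3D19, an adaptor protein, shared a control region of 4945 bp, which also covered SNORD73A. In the overexpression list RPS3A and SH3D19 each had 1 region, apart from each other. EVC, a cilium protein, and CRMP1, a protein of axon guidance, had 1 control region (1505 bp) and 4 overexpression regions (3365 bp). C4orf51 and ZNF827 had 1 region in each list (4515 and 1425 bp), as had PDCD11, a factor of ribosomal RNA processing, and CALHM2 on chromosome 10 (2050 and 3280 bp), with 491 bp between the genes. FNIP2, a partner of folliculin, with C4orf45 had 1 control and 2 overexpression regions (1820 and 2965 bp). The antisense gene UGDH-AS1 with SMIM14 had 2 and 3 regions (4945 and 3050 bp), and TMEM184C with PRMT9, an arginine methyltransferase, also 2 and 3 (2585 and 2815 bp).

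**Figure D3:**
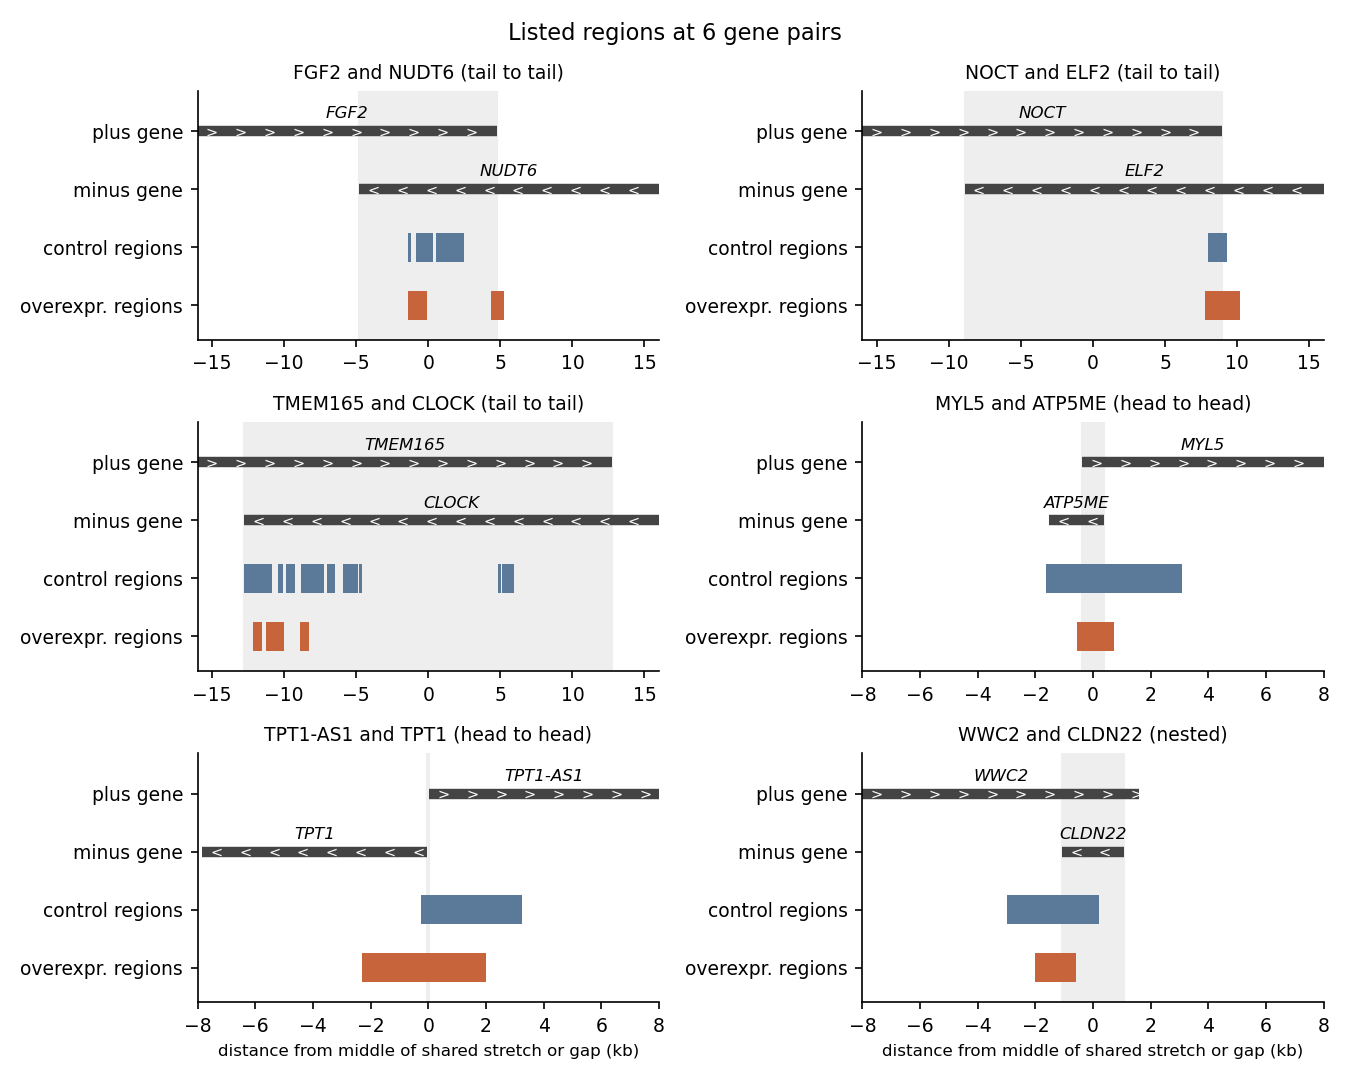
Gene spans (dark bars, arrowheads pointing in the direction of transcription) and the regions lying over both genes in the control list (blue) and the overexpression list (orange) at 6 pairs; the horizontal axis is the distance in kb from the middle of the stretch the genes share, or of the gap between them, shaded grey. The control regions of TMEM165 and CLOCK number 9 and lie mostly towards the 3′ end of CLOCK, and at NOCT and ELF2 the overexpression region contains the control region.

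On chromosome 18 the tail to tail pairs appeared in the overexpression list alone. ATP8B1, a phospholipid flippase, had 26 regions (14725 bp) that also lay over an unnamed gene of the plus strand, the highest number for any pair, and 12 regions of its own. TUBB6, a beta-tubulin, and AFG3L2, a protease of the mitochondrial inner membrane, had 11 shared regions (6600 bp), beside 13 and 8 of their own. NDUFV2, a subunit of respiratory complex I, and NDUFV2-AS1 had 12 (3900 bp). RMC1, a lysosomal trafficking protein, and NPC1, which exports cholesterol from lysosomes, had 8 (7490 bp); NPC1 had 4 regions of its own and RMC1 none. These pairs were named after their values were seen. On chromosome 10, the same list had 1 region of 3075 bp over ZSWIM8, a ubiquitin ligase subunit known from microRNA decay, and NDST2, an enzyme of heparan sulfate synthesis. BCCIP, a partner of BRCA2 and of ribosome assembly, and the helicase DHX32 shared 3 regions (4510 bp). Neither gene of that pair had a region elsewhere.

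Among head to head pairs, MYL5, a myosin light chain, and ATP5ME, a subunit of the mitochondrial ATP synthase, had the widest control region, 4730 bp at chr4:672306-677035, which ran over the whole of ATP5ME. The overexpression region, 1290 bp, lay within it and over the 751 bp that the Ensembl transcripts of both genes share. Both regions covered the full promoter window of ATP5ME printed above. TPT1, the translationally controlled tumour protein, whose mRNA starts with a pyrimidine tract that ties its translation to growth signals, starts 162 bp from TPT1-AS1 by RefSeq. A control region of 3485 bp reached from the first bases of TPT1 into TPT1-AS1, and an overexpression region of 4305 bp lay over both; 2255 bp were in both lists. Both covered the whole printed promoter window of TPT1. TPT1 had no other region in either list, and TPT1-AS1 had 1 more in the overexpression list (1025 bp).

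HNRNPD, an RNA-binding protein that acts on AU-rich mRNAs, and its divergent transcript HNRNPD-DT had 1 region in each list (1720 and 1505 bp), with 645 bp in common. HNRNPD had 3 control and 4 overexpression regions of its own, and HNRNPD-DT had none. NAA15, the ribosome-anchoring subunit of an N-terminal acetyltransferase, and NDUFC1, a subunit of complex I, had 2 control regions (2385 bp) and 1 overexpression region (1000 bp), and both genes had regions of their own in both lists. IGFBP7, a secreted protein that binds insulin-like growth factors, and IGFBP7-AS1 had 1 region in each list (2280 and 1005 bp). Apart from each other, IGFBP7 had 10 control and 4 overexpression regions and IGFBP7-AS1 had 4 and 1. In the control list only, GAR1, a protein of box H/ACA RNA particles, and GAR1-DT had a region of 1010 bp, and HNRNPDL and ENOPH1, an enzyme of methionine salvage, 1 of 430 bp; these covered 109 and 120 of the 250 bases printed for GAR1 and HNRNPDL. The head to head pair FBXL15 and PSD had an overexpression region of 4305 bp, which also reached CUEDC2, which lies tail to tail with FBXL15 across a gap of 108 bp. DSEL, an enzyme-like protein of dermatan sulfate, with DSEL-AS1 had 1640 bp, and LINC00863 with NUTM2A-AS1 2050 bp, both in the overexpression list alone. KLHDC3, a ubiquitin ligase subunit, and MEA1 shared a region that held the entire printed window of KLHDC3.

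Of the 77 nested pairs, 48 held an unnamed gene, 14 a named antisense gene and 10 a small RNA, with some in more than 1 of these classes, and 6 joined coding genes. WWC2, a regulator of the Hippo pathway, with the claudin gene CLDN22 in it had 1 region in each list (3200 and 1430 bp), the second lying within the first, and no other region. TACC3, a spindle protein, had 4 control regions (3395 bp) and 1 overexpression region (1015 bp) also over TMEM129, next to 7 and 5 of its own. By RefSeq these genes are head to head, and the regions over both lie outside TACC3. The antisense genes UBE2D3-AS1, within the ubiquitin-conjugating enzyme gene UBE2D3, and OCIAD1-AS1, within OCIAD1, had 2 control regions each (1365 and 1965 bp), and UBE2D3-AS1 had 1 in the overexpression list (645 bp). The pseudogenes GBA3 and CDC42P6 shared 1 control region of 1075 bp. In the overexpression list, PSMG2, a chaperone of proteasome assembly, and the centrosomal gene CEP76, named after their values were seen, had 17 regions (5490 bp) and PSMG2 a further 5 alone. PITRM1, a mitochondrial peptidase, with PITRM1-AS1 had 1 region of 2255 bp. LIPA, lysosomal acid lipase, with IFIT1, an interferon-induced gene listed inside its span, had 1 of 2050 bp, ZSWIM8 with ZSWIM8-AS1 1 of 3075 bp, and CHMP1B, of the ESCRT-III complex, with CHMP1B-AS1 1 of 1860 bp. DLGAP1, a scaffold of synapses, with DLGAP1-AS2 had 6 (4005 bp).

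Of 21 genes listed for TGF-beta signalling and fibrosis, 18 had a region in either list and 6 had a region shared with an opposite gene. By list these were 3 of 7 genes (control) and 4 of 16 (overexpression). The shares were 39.3% and 42.3% over all listed genes, and 32.8% and 36.6% over listed coding genes. They were FGF2 and PALLD above, CDH2, FRAS1, NEDD4L and VEGFC. CDH2, N-cadherin, had 3 overexpression regions of 205, 615 and 215 bp over an unnamed gene nested in it, and 6 over CDH2 alone. NEDD4L, a ubiquitin ligase, had 1 of 3710 bp over a nested unnamed gene and 14 alone. VEGFC, a lymphatic growth factor, had 2 overexpression regions (1235 and 485 bp), both over an unnamed gene. FRAS1, a basement membrane protein, had 2 control regions (600 and 690 bp), both over the pseudogene SERBP1P5. Of 18 genes for translation and the ribosome, 14 had a region and 6 a shared one: TPT1, RPS3A, LARP7, NOCT, CPEB2 and RPL17. By list these were 4 of 8 and 5 of 12 genes, to be set beside the same shares of all listed and of coding genes. The genes are few, so the counts cannot tell whether the translation genes stand apart, and this was not tested. CPEB2, which binds the cytoplasmic polyadenylation element, shared its single region with C1QTNF7-AS1 (1290 bp, overexpression list). RPL17, of the large ribosomal subunit, shared its single region, 6520 bp, the widest of all, with an unnamed gene of the plus strand. These genes were put together with earlier results of the same lists known, so the counts are a description.

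Recurrence between the lists was next compared, at an overlap of at least 1 bp. Of the 176 control regions over genes of both strands, 66 (37.5%, 30.7 to 44.8) overlapped an overexpression region, and 238 of 939 over 1 strand (25.3%, 22.7 to 28.2); the share over all control regions in genes was 27.3%. In the other direction 65 of 313 did (20.8%, 16.6 to 25.6), against 260 of 1554 (16.7%, 15 to 18.7) and 17.4% of all. On chromosome 4 the control shares were 37.5% (63 of 168) and 24.9% (228 of 914), with 26.9% of all, and the overexpression shares 71.4% (60 of 84; 61 to 80) and 64.4% (251 of 390; 59.5 to 69), with 65.6% of all. On chromosome 10, 2 of 6 control and 4 of 24 overexpression regions overlapped, with 41.4% and 10.2% of all. For the control list the intervals of both kinds lay apart, and for the overexpression list, whose shares lay near that of all regions, they overlapped.

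Width bears on this comparison, since a wider region meets more genes and more regions. Regions over both strands had a median width of 682.5 bp in the control list, against 615 bp over 1 strand, and in the overexpression list of 555 bp, against 410 bp. On chromosome 4 the medians were 672.5 and 600 bp (control), and 852.5 and 740 bp (overexpression). Within 4 width classes of chromosome 4 the control shares were 19.4% and 10.6% under 400 bp, 25.5% and 15.2% from 400 to under 800 bp, 41.7% and 34.8% from 800 to under 1600 bp, and 67.6% and 54.6% from 1600 bp, each time with overlapping intervals. No test was made, because regions of the same gene are not independent, and the part of width in the difference was not tested further.

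**Figure D4:**
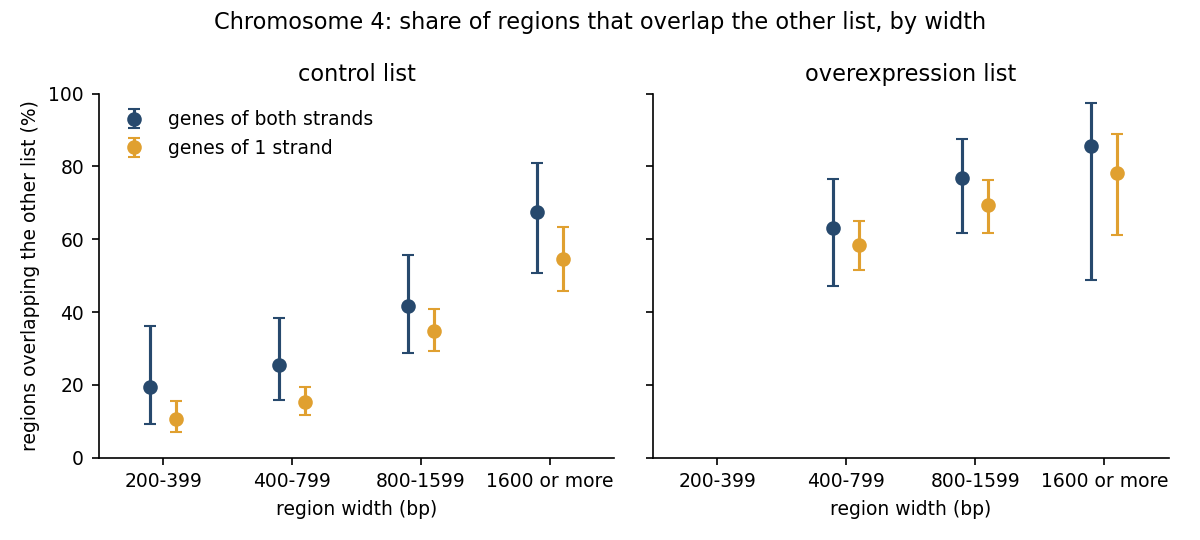
Percentage of chromosome 4 regions that overlap a region of the other list (vertical axis) by region width in bp (horizontal axis), for regions over genes of both strands (dark) and of 1 strand (yellow), with 95% Wilson intervals. Shares rise with width in both lists and both kinds, and the intervals of the 2 kinds overlap in each class; the overexpression list has no chromosome 4 region under 400 bp in genes.

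Regions in both lists were found for 48 gene pairs, 45.3% of the 106 control pairs and 31.4% of the 153 overexpression pairs. Of all genes, 51.8% of the control list were also in the overexpression list and 38.5% the other way; the difference was not tested. On chromosome 4, 43 pairs recurred (45.3% of 95 and 79.6% of 54), against 52.3% and 84% of genes. On chromosome 10 the 3 recurring pairs stand beside 47.1% and 18.8% of genes. In 46 of the 48 pairs a control region and an overexpression region over the pair shared bases, and in 2 pairs, MRPS18C with ABRAXAS1 and NCAPG with LCORL, a region had identical ends in both. The other 2 pairs are HHIP, an inhibitor of hedgehog signalling, with each of 2 unnamed genes of the opposite strand. Many widths repeat in both lists, and whether identical ends mark the same bound stretch was not tested.

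The summed width of regions over the recurring pairs had a median of 2332.5 bp (control) and 1477.5 bp (overexpression), and was larger in the control list for 32 pairs and in the overexpression list for 16. Pairs that share a region are not separate values. On chromosome 4, where the control list is the longer, the split was 32 to 11, with a median of 0.608 for overexpression width over control width, and on chromosome 10, where it is the shorter, 0 to 3. At the ends of the range among named pairs were LARP7 with MIR302CHG (ratio 0.247, 3870 and 955 bp) and FAM13A with FAM13A-AS1 (2.72, 830 and 2260 bp). Among coding pairs, EVC with CRMP1 (2.24) and NOCT with ELF2 (1.86) were longer in the overexpression list, and MYL5 with ATP5ME (0.273) and JADE1 with SCLT1 (0.29) in the control list. These pairs were named for their ratios.

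**Figure D5:**
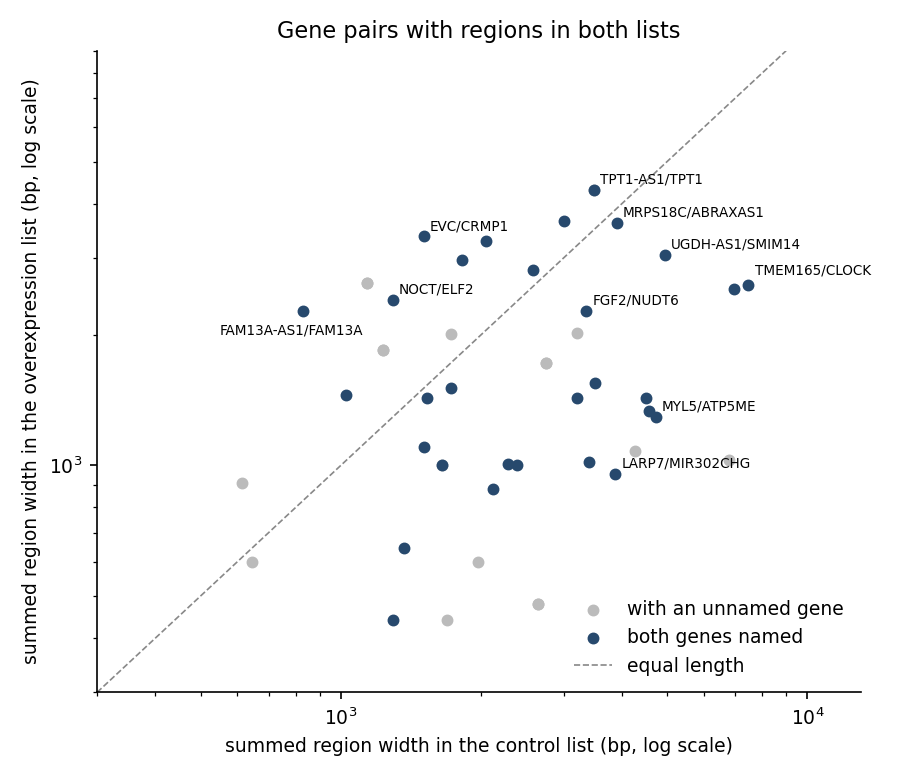
Summed width of the regions over each of the 48 pairs found in both lists, in the control list (horizontal axis, bp, log scale) and the overexpression list (vertical axis, bp, log scale); dark points are pairs of 2 named genes, grey points pairs with an unnamed gene, and the dashed line marks equal width. Of the pairs, 32 lie below the line and 16 above it; pairs under the same regions coincide.

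Regions over a single gene of a pair show which partner was also listed on its own. Of the 41 control pairs of coding genes, both genes had a region apart from the partner in 13, a single gene in 19 and neither in 9. In the overexpression list the counts were 10, 22 and 19 of 51. ELF2 and not NOCT, TMEM165 and not CLOCK, and CBR4 and not PALLD were such cases in the control list. The case of NOCT depends on the transcripts used: by RefSeq gene records its region lies over NOCT and not over ELF2. For TMEM184C and PRMT9 and for PDCD11 and CALHM2 neither gene had a region apart in either list. By RefSeq, however, TMEM184C ends 1063 bp before PRMT9. By these records both control regions lie over PRMT9 alone, and 1 of the 3 overexpression regions lies over both genes.

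The arrangement rests on the transcripts in the lists, which include long Ensembl isoforms. RefSeq gene records were found for 122 of the 127 pairs with both genes named. The arrangement was the same for 118 of them. The pairs that differed, TACC3 with TMEM129, GSTCD with INTS12, H2AZ1-DT with DDIT4L and SNORD73A with SH3D19, were nested by Ensembl and not by RefSeq. By Ensembl 106 pairs shared bases, and by RefSeq 83. For 23 pairs no region lay over both RefSeq genes, among them NOCT with ELF2, whose RefSeq records are 11280 bp apart, RPS3A with SH3D19 (15638 bp apart), EVC with CRMP1, TACC3 with TMEM129, FBXL15 with PSD, and the kinase gene MAPK10 with ARHGAP24, which had 6 control regions. For TMEM165 with CLOCK, PALLD with CBR4, RMC1 with NPC1 and PSMG2 with CEP76, every shared region also lay over both RefSeq genes. TUBB6 and AFG3L2 kept 1 of 11 regions. MRPS18C and ABRAXAS1 kept 4 of 9 control and 3 of 5 overexpression regions. FGF2 and NUDT6, which share 5660 bp by RefSeq, kept 2 of 3 control and 2 of 2 overexpression regions. The control region of 215 bp lay outside NUDT6 by these records. Of the regions with such a named pair, 90 of 132 in the control list (68.2%) and 145 of 184 in the overexpression list (78.8%) lay over both RefSeq genes.

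At the edge of the rule, the smallest overlap with the lesser strand was 10 bp at GAR1 and GAR1-DT in the control list and 3 bp at TTC39C and an unnamed gene in the overexpression list. Just outside it, a control region lay 123 bp from SORBS2 or the unnamed gene opposite, and an overexpression region 15 bp from its second gene at PSMA8 and DHFRP1. Overlaps under 100 bp numbered 7 and 12, and 9 and 27 regions over 1 strand had a listed gene of the other strand within 1000 bp.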

How the data were processed

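Per the submitters' processing notes, reads were handled with bcl2fastq 2.19.0, Trimmomatic 0.36 and HISAT2 2.1.0 on GRCh38 (hg38). How regions were called, at which threshold, with which use of the total RNA and from which replicates is not given in the sources used here. Deposited was 1 table of regions per condition, with positions, widths and distances in bp and 1 row per transcript, without count, score or strand; the authors give no other measure in it.

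Rows placed inside or across a transcript were kept (6651 control, 11595 overexpression); rows that were merely nearest or adjacent (680 and 1158) were dropped. A gene's span was the union of its transcripts in both tables. Summed widths use whole regions, including parts beyond a gene. Shares have 95% Wilson intervals. With 1 table per condition no test between conditions was possible. Pairs were named if among the 5 widest of an arrangement in a list, among the 12 of both lists with the largest smaller region, or if they held a listed gene; small RNAs and unnamed genes were left out where others could be named. All other pairs, among them those of the smaller chromosomes, of the RefSeq check and of the promoters outside this rule, were named after their values were seen. The members and gene lists were chosen with earlier results of these data known. Gene types, synonyms, promoters and microRNAs came from RefSeq GRCh38.p14. Alternatives are in the closing section. Classes and overlaps were tested on simulated data. Software: scipy 1.17.1, numpy 2.4.6, pandas 2.3.3 and matplotlib 3.10.9 were run under Python 3.11.15.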

Additional observations from a re-analysis of the deposited data

How the results depend on the processing

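No paired analysis was possible because each condition has 1 table and no value per replicate; leaving out a replicate was not possible for the same reason. Settings by chromosome, other than widths on chromosome 4, and the RefSeq spans were chosen after seeing the data. Of 54 alternative values, 31 stayed within the 95% interval (or, for the count of pairs, 1.5 times) of the value reported. The share of regions over both strands was 8.66% (control) and 10.7% (overexpression) with rows inside a transcript only, 10.9% and 9.37% with named genes only, and for the overexpression list 18.4% with regions up to 1000 bp apart merged, 18.8% from 400 bp and 18.5% without chromosome 18. With named genes only, overexpression pairs were 62.1% tail to tail, 19.5% head to head and 18.4% nested, and 30 pairs were in both lists. The share overlapping the other list was 50% (control) and 29.7% (overexpression) after merging and 19.3% and 11.2% at 50% of both regions; for the overexpression list it was 71.4% on chromosome 4 and 54.2% without chromosome 18. In that list the median width was 852.5 bp on chromosome 4 and 1002.5 bp without chromosome 18 for both strands, and 740 and 800 bp for 1 strand. The share wholly on bases of both genes was 59.5% on chromosome 4 and 55% without chromosome 18. The cause of these shifts was not tested, beyond fewer rows, genes or chromosomes entering.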

Other observations

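The ends of regions coincided in places between the lists. Among regions over genes of both strands, 70 pairs of a control and an overexpression region overlapped; 6 of these had the same start, 10 the same end and 2 both. FGF2 with NUDT6 was a case of a shared start. Many widths repeat in both lists, such as 215, 430 and 645 bp, and how the ends were set is not given. Equal ends therefore need not be a match to the base, and whether they mark the same bound stretch was not tested.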
